A study of Sus scrofa with 48 samples.

Results

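Genes whose name on the array is ZNF followed by a number were examined in the fat around the kidneys, the perirenal adipose tissue (PRAT), of growing pigs. The array carried 212 probes for 155 such names. A name was retained when at least 1 of its probes was well above background on 24 or more of the 48 arrays, and the probe with the highest mean signal then stood for the gene. This left 136 ZNF genes, out of 9263 named genes that passed the same filter. The other 19 names had no probe above this limit. ZNF135 (25 arrays) and ZNF408 (26 arrays) were just inside it, and ZNF513 (23 arrays), ZNF347 and ZNF596 (21 arrays each) were just outside. Of the 136 retained probes, 119 were above background on all 48 arrays and 125 had been kept by the authors in their own table. The reference gene tables hold 116 of the 136 symbols, and the others are given as the array names them.

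The 48 pigs were castrated Large White males of 132 days of age according to the labels, with 1 array per pig and no pooling. They came from a line selected over generations for low residual feed intake (RFI), the feed eaten beyond that predicted from growth and maintenance, and from a line selected for high RFI. Pigs of both lines were fed either HF, rich in fat and fiber, or LF, poor in both and rich in starch. The 4 groups, labelled HF_RFIneg, HF_RFIpl, LF_RFIneg and LF_RFIpl, held 12 pigs each, hence 24 pigs per diet and 24 per line.

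Most ZNF proteins belong to the C2H2 class, in which a pair of cysteines and a pair of histidines hold a zinc ion and fold a short loop that reads DNA bases. Many carry tandem arrays of such fingers joined by a conserved linker peptide, and a large subfamily adds a KRAB domain, which recruits the co-repressor TRIM28 and, through it, histone methylation and heterochromatin proteins. Some ZNF proteins are known in fat tissue, with ZNF423 acting in the commitment of preadipocytes and ZNF638 acting as a cofactor early in adipocyte differentiation.

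Each value below rests on a probe of 60 bases. The probes of the 8 genes with the largest called diet differences in either direction, 4 each way, are given first because they define which transcript segment was measured. They are written 5' to 3' as in the scanner files, in lower case because no searched motif was found in them.
ZNF436: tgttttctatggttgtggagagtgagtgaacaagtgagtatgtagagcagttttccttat
ZNF292: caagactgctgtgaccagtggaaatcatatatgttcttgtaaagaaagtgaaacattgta
ZNF687: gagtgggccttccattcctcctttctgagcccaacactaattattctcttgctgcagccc
ZNF672: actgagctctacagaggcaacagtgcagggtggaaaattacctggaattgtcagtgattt
ZNF704: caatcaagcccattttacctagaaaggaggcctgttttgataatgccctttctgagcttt
ZNF75A: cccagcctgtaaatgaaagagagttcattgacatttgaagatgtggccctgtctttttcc
ZNF423: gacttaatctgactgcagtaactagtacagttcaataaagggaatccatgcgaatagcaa
ZNF628: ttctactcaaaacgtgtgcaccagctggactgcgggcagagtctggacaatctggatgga

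The linker between fingers can be encoded by the letters GGNGANAANCC, where N is any base. This was the only motif searched, on both strands. It was found in 4 of the 136 ZNF probes (2.94%), against 92 of 43355 tested probes (0.212%). These 4 probes are shown because they lie in the repeated part of the coding sequence, where family members resemble each other most. The capitals mark the match, which is on the given strand for ZNF146 and ZNF169 and on the other strand for ZNF143 and ZNF85. For ZNF143 and ZNF85 the linker is thus encoded opposite to the probe. Whether these probes report the transcript of the named gene was not tested.
ZNF146: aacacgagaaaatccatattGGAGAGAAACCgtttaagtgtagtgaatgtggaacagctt
ZNF169: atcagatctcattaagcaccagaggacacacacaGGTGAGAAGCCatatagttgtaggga
ZNF143: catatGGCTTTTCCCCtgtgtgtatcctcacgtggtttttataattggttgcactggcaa
ZNF85: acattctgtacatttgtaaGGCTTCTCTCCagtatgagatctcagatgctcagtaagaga
None of these 4 probes was called for diet, with HF minus LF differences between -0.079 and 0.095 on the log2 scale. The probes of the 20 genes called for diet did not hold these letters. The absence of a single pattern does not place a probe outside the repeated part. No stretch of 20 bases was shared between the probes of different ZNF genes, but cross-hybridisation between family members was not measured.

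Signals are given as log2 of the median spot intensity minus the centring constant of the array, so that 0 is the typical probe of an array. limma was fitted to them with terms for diet, for line and for the interaction of both. A gene was called at a raw p under 0.01, a fold over 1.1 and a Benjamini-Hochberg (BH) adjusted p under 0.08, taken over all 43355 tested probes. Each array had between 38875 and 47814 biological probes well above background, and none of the ZNF spots was saturated. The tissue label fits its markers, since FABP4 and ADIPOQ had mean signals of 8.99 and 8.46 in the HF pigs. Changes in the number of cells of a type and in RNA per cell cannot be told apart in this bulk tissue.

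The HF diet changed 20 of the 136 ZNF genes (14.7%), of which 13 were higher and 7 were lower than with the LF diet. Over all tested probes, 23.0% were called, 8.53% higher and 14.5% lower. Among the 9127 other named genes, 24.4% were called, 5.94% higher and 18.5% lower. Hence 65.0% of the called ZNF genes were higher with the HF diet, against 24.3% of the other called genes. With the arrays of scan day 1 alone it was 83.3% against 19.0%. With those of scan day 2 alone it was 46.2% against 22.8%, so that more ZNF genes were called lower than higher. Under 6 other scalings of the arrays, this share was 63.6% to 100.0% for the ZNF genes and 24.1% to 87.8% for the others. The share called also moved, at 16.2% to 36.8% of the ZNF genes and 20.9% to 26.5% of the others. It was larger in the ZNF genes with the 75th percentile, the processed signal and the spike-in centre. All called differences were small, between 1.1-fold and 1.3-fold, and the ranges of the HF and LF pigs overlapped for each of the 20 genes. The list received no test of its own, since its members were chosen with results of these data known.

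**Figure D1:**
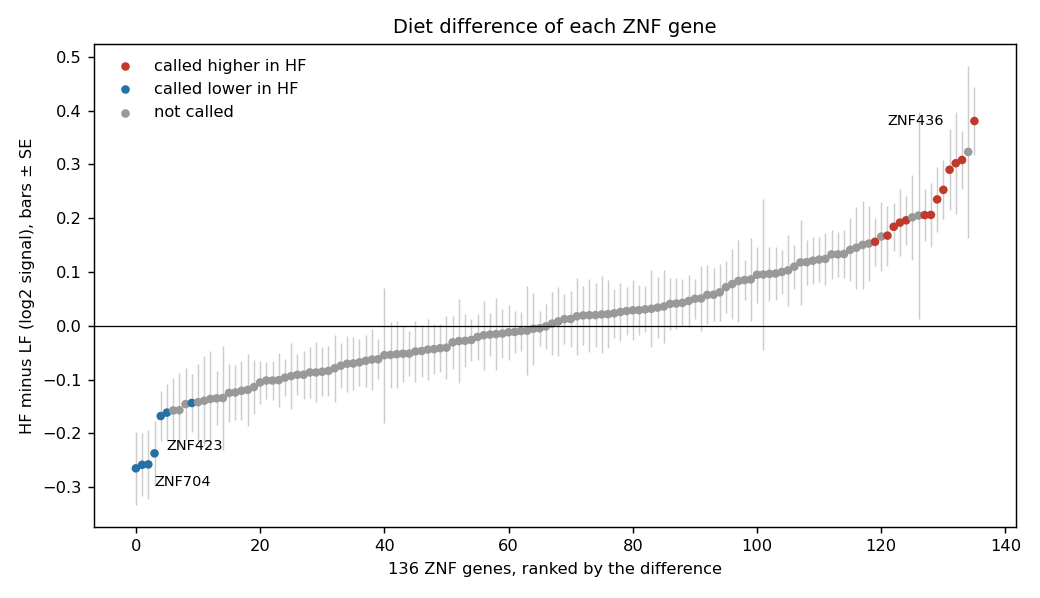
HF minus LF difference (log2 signal) of each of the 136 ZNF genes, ranked from lowest to highest, with bars for the standard error. Red points are the 13 genes called higher with the HF diet and blue points the 7 called lower, and the differences run from -0.27 for ZNF704 to 0.38 for ZNF436.

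Across the whole list the diet difference was balanced around 0, with 69 genes above and 67 below, and a median of 0.0061. The other named genes were shifted to lower values in the HF pigs, with a median of -0.047 and 36.0% of genes above 0. The median absolute difference was 0.085 for the ZNF genes and 0.10 for the others. The most extreme ZNF genes were at -0.27 and 0.38, whereas the other genes spanned -2.70 to 1.72. Signals were also taken relative to each gene's own level across the pigs. Per pig, the median of these relative values over the ZNF genes was -0.0015 ± 0.040 (SD, n = 24) with the HF diet and -0.0073 ± 0.042 (n = 24) with the LF diet. The same median over the other genes was -0.029 ± 0.042 with the HF diet and 0.020 ± 0.036 with the LF diet.

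These medians moved with the scaling of the arrays. With arrays centred on the 75th percentile, the ZNF median became 0.049 and that of the other genes -0.0046, with 28 ZNF genes called higher and 4 lower. These calls were 23.5% of the ZNF genes, against 22.1% of the other genes (918 higher and 1100 lower of 9127). With arrays centred on the spike-in transcripts, all genes moved up, the median of the other genes went from -0.047 to 0.094, and 50 ZNF genes were called higher and 0 lower. With that scaling 87.8% of the other called genes were also higher with the HF diet. The share called was then 36.8% of the ZNF genes and 26.5% of the others. Under the 7 scalings, including that of the authors, the ZNF median exceeded the median of the other genes by 0.035 to 0.078. Scalings that only subtract a constant from each array shift all genes alike, so their gap of 0.053 was fixed in advance. These are the authors' constants, the median over all biological probes, the 75th percentile and the spike-in centre. The gap was free to change with the processed signal (0.078), normexp and quantile (0.035) and quantiles alone (0.037).

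**Figure D2:**
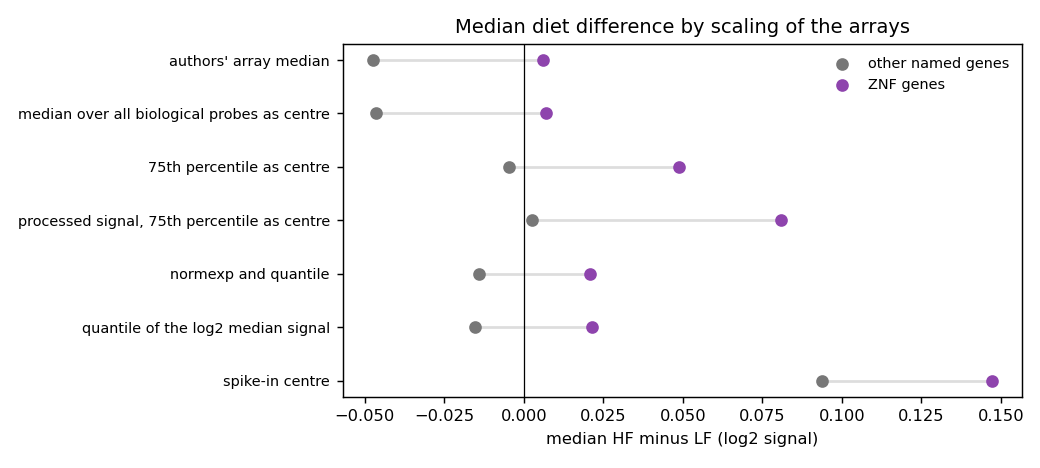
Median HF minus LF difference (log2 signal) of the 136 ZNF genes (purple) and of the 9127 other named genes (grey) under 7 ways of scaling the arrays. Both medians move with the scaling, from 0.0061 and -0.047 with the authors' constants to 0.15 and 0.094 with the spike-in centre, and the purple point lies to the right in each row. The distance between the points cannot differ among rows whose scaling only subtracts a constant from each array.

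The mean signal of the ZNF probes had a median of -0.36, against 0.74 for the other named genes, so genes of like brightness were compared. All named genes were cut into 5 classes of mean signal, where class 1 is the dimmest. The classes held 41, 31, 37, 17 and 10 ZNF genes, so that 30.1% of ZNF genes were in class 1 and 7.35% in class 5. With the other genes weighted to the same classes, 5.92% were called higher, 15.2% lower and 21.1% in either direction. The weighted mean of their 5 class medians was -0.043 for the difference and 0.098 for the absolute difference. The ZNF shares, likewise with the authors' constants, were 9.56%, 5.15% and 14.7%, and the plain medians over all ZNF genes were 0.0061 and 0.085.

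In class 1, none of the 41 ZNF genes was called higher and 2 were called lower, against 3.26% and 6.18% of the other genes. In class 3, 7 of 37 ZNF genes were called higher (18.9%) and 3 lower (8.11%), against 7.71% and 19.4% of the others. In class 5, 1 of 10 ZNF genes was called in each direction, against 4.45% higher and 30.8% lower among the others. The ZNF median difference was above that of the other genes in each class, with -0.0098 against -0.034 in class 1, 0.023 against -0.032 in class 2, 0.020 against -0.044 in class 3, -0.012 against -0.058 in class 4 and -0.024 against -0.082 in class 5.

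**Figure D3:**
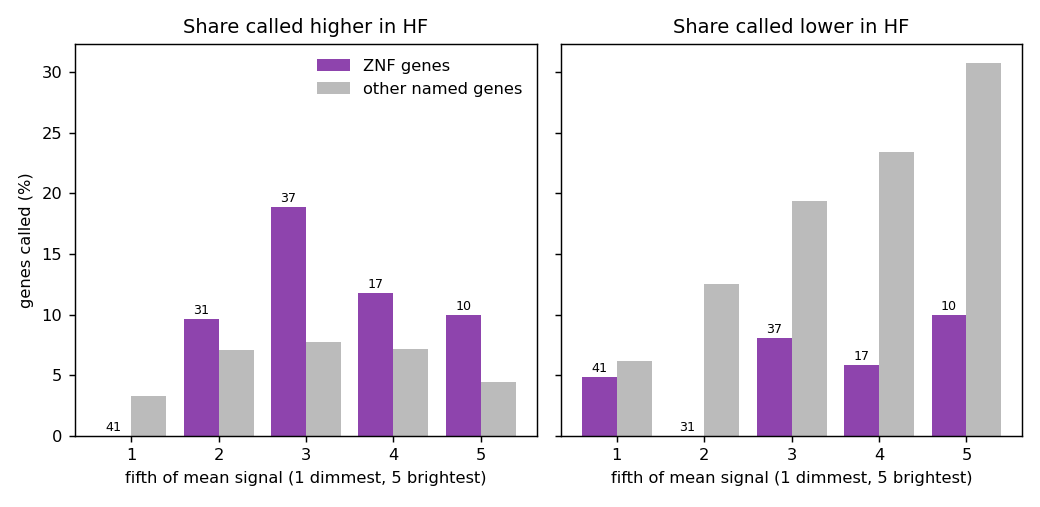
Share of genes (%) called higher (left) or lower (right) with the HF diet in 5 classes of mean signal, for ZNF genes (purple, with their number above the bar) and other named genes (grey). The grey share called lower grows from 6.18% in class 1 to 30.8% in class 5, while the purple share called lower stays at or below 10% and the purple share called higher is largest in class 3, at 18.9%.

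ZNF436, a KRAB-type zinc finger protein, had the largest rise. Its signal was between 2.28 and 3.09 in the HF pigs, with a median of 2.75, and between 1.92 and 2.86 in the LF pigs, with a median of 2.30. The ranges overlapped, but 23 of 24 HF pigs were above the LF mean and 6 were above all LF pigs. The difference was 0.38 (SE 0.063, limma BH-adjusted p = 1.7e-05), or 1.3-fold.

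ZNF292, a large zinc finger protein with fingers that bind the growth hormone promoter, was measured by 2 probes in capitals and by a further probe spelled in lower case. Its retained probe was between -1.18 and -0.52 with the HF diet (median -0.76) and between -1.37 and -0.65 with the LF diet (median -1.10). As for ZNF436, 23 of 24 HF pigs exceeded the LF mean. The difference was 0.31 (SE 0.054, limma BH-adjusted p = 3.5e-05), and the other probes gave 0.23 and 0.31, so that all 3 were called. The retained probe was not in the authors' table.

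ZNF687 and ZNF532 are partners in a chromatin complex with ZMYND8, and both were called higher. ZNF687 was between 0.54 and 1.79 with the HF diet (median 1.24) and between 0.27 and 1.5 with the LF diet (median 0.95), with a difference of 0.30 (SE 0.095, limma BH-adjusted p = 0.0144). This call rested on the brightest of its probes, since the others gave 0.032, 0.14 and, for the probe in lower case, -0.0036, none of them called. ZNF532 differed by 0.17 (limma BH-adjusted p = 0.0205) on its single probe. The complex member ZNF592 had no probe above the filter.

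For ZNF672, HF pigs ranged from 0.52 to 1.47 (median 0.90) and LF pigs from 0.17 to 1.33 (median 0.66). The groups overlapped over most of their range, and 19 of 24 HF pigs were above the LF mean. The difference was 0.29 (SE 0.075, limma BH-adjusted p = 0.0032) and the second probe gave 0.26, also called. ZNF692, its neighbour in the reference gene order, differed by 0.097 without a call.

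ZNF142 gave results that depended on the probe. The retained probe was between 0.16 and 1.06 with the HF diet (median 0.45) and had a median of 0.24 and a maximum of 0.73 with the LF diet. Its difference was 0.25 (SE 0.055, limma BH-adjusted p = 0.000557), and the LF mean was exceeded by 22 of 24 HF pigs. The second probe gave 0.12 and was not called. A probe spelled in lower case, which was brighter, gave -0.074 (BH-adjusted p = 0.182), and the mean of the 3 probes, at 0.099, was not called. The retained probe and the one in lower case are shown because they disagree in sign.
ZNF142 retained: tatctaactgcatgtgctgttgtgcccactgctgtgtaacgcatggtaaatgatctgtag
ZNF142 lower case: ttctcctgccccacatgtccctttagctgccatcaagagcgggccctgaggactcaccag

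The KRAB-type genes ZNF184 and ZNF268 rose on most of their probes. ZNF184 was between 0.086 and 0.68 with the HF diet (median 0.40) and between -0.39 and 0.62 with the LF diet (median 0.22), with a difference of 0.23 (SE 0.060, limma BH-adjusted p = 0.00296) and 0.24 on its second probe. ZNF268 was between 0.54 and 1.29 (median 0.77) with the HF diet and between 0.29 and 0.90 (median 0.59) with the LF diet. Its difference was 0.20 (SE 0.046, limma BH-adjusted p = 0.00115), and 23 of 24 HF pigs were above the LF mean. Of its 5 probes, 3 were called higher with differences of 0.20 to 0.27, 1 gave 0.12 and 1 gave -0.096.

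ZNF395, a hypoxia-inducible factor, was the gene of class 5 that rose. It ranged from 3.89 to 4.72 with the HF diet (median 4.34) and from 3.71 to 4.44 with the LF diet (median 4.21). The highest 10 HF pigs exceeded all LF pigs. The difference was 0.21 (SE 0.059, limma BH-adjusted p = 0.00696), and all 3 of its probes were called higher, with 0.22 and 0.16 on the others. ZNF323, whose probe the authors had not kept, likewise had 10 HF pigs above all LF pigs, with a median of -1.0 against -1.17 and a difference of 0.21 (SE 0.048, BH-adjusted p = 0.0011). The remaining genes called higher, ZNF791, ZNF45 and ZNF389, differed by 0.19, 0.18 and 0.16.

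Among the genes that were lower with the HF diet, ZNF423 is the one with the best-known role in fat, as a factor of preadipocyte commitment that acts upstream of PPARG. It was between 1.64 and 2.63 in the HF pigs (median 2.1) and between 1.92 and 2.79 in the LF pigs (median 2.37). The groups overlapped, with 22 of 24 HF pigs below the LF mean and 7 below all LF pigs. The difference was -0.26 (SE 0.065, limma BH-adjusted p = 0.0024), with -0.31 in the low RFI line and -0.20 in the high RFI line.

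ZNF75A and ZNF704 had falls of the same size as ZNF423. ZNF75A, a KRAB-type gene, was between 0.015 and 0.79 with the HF diet (median 0.39) and between 0.26 and 0.99 with the LF diet (median 0.63), and 23 of 24 HF pigs were below the LF mean. Its difference was -0.26 (SE 0.059, limma BH-adjusted p = 0.000869). ZNF704 had medians of -2.41 and -2.16 and a difference of -0.27 (SE 0.068, BH-adjusted p = 0.0028), on a probe that the authors had not kept. ZNF628, a dim gene above background on 44 arrays, ranged from -3.44 to -2.61 with the HF diet and from -3.15 to -2.52 with the LF diet, with a difference of -0.24 (SE 0.060, BH-adjusted p = 0.0024).

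**Figure D4:**
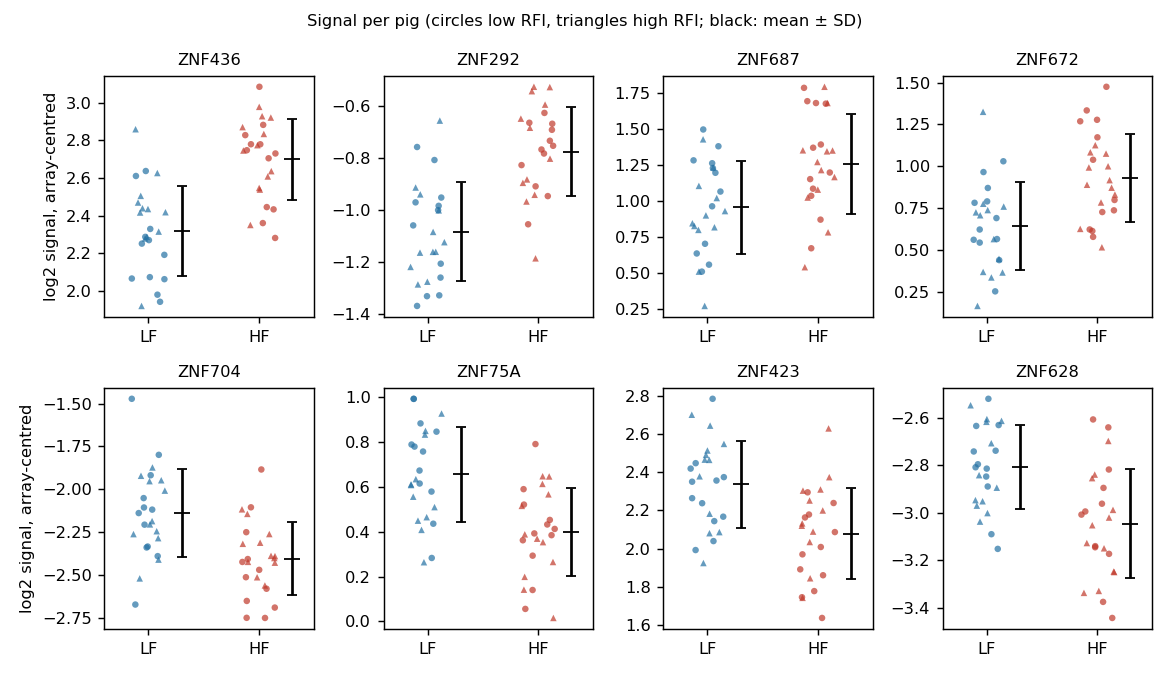
Signal of each pig (log2, array-centred) for the 4 ZNF genes with the largest called rise (upper row) and the 4 with the largest called fall (lower row), by diet, with circles for low RFI and triangles for high RFI and black bars for the mean ± SD of 24 pigs. The diets overlap in each panel, although 23 of 24 HF pigs lie above the LF mean for ZNF436 and 22 of 24 lie below it for ZNF423.

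The other genes called lower were ZNF614, ZNF706 and ZNF511. ZNF706, which encodes a short protein reported to repress KLF4 in stem cells, was between 5.07 and 6.01 with the HF diet (median 5.55) and between 5.36 and 6.12 with the LF diet (median 5.61), and differed by -0.16 (SE 0.053, limma BH-adjusted p = 0.0187). ZNF614 had medians of -0.11 and 0.046 and differed by -0.17 (BH-adjusted p = 0.0049). ZNF511 had medians of 0.67 and 0.74 and the smallest called difference, -0.14 (BH-adjusted p = 0.0379). Its second probe gave -0.099 and was not called.

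Each called gene was examined again under the other scalings. Among these 6 settings, 12 or 13 of the 13 genes were still called higher, the exception being ZNF389 after normexp and quantile normalization. Of the 7 genes called lower, 7 were still called with the median over all biological probes, 4 or 5 with the percentile and quantile scalings, and none with the spike-in centre. All 20 genes kept the sign of their difference under these scalings. ZNF706 and ZNF511 were called lower under 1 of the 6 other scalings, and ZNF423, ZNF75A and ZNF704 under 5.

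Genes with a described link to fat or glucose, chosen from general knowledge or because the study names them, numbered 12. Of these, 4 were called (33.3%), against 14.7% of all ZNF genes, namely ZNF423, ZNF268, ZNF184 and ZNF292, described above. A choice that follows the study's own text on these samples is not independent of the calls. The other 8 were not called on their retained probe. ZNF638 was between 2.1 and 2.71 with the HF diet (median 2.41) and between 1.80 and 2.48 with the LF diet (median 2.32), with a difference of 0.12 (SE 0.043, limma BH-adjusted p = 0.0316) that missed the fold limit. The dimmer second probe of ZNF638 gave 0.20 (SE 0.054, limma BH-adjusted p = 0.0038) and was called higher. ZNF467, which favours adipocyte over bone cell fate in marrow, differed by 0.14 (BH-adjusted p = 0.064). ZNF217, a partner of the co-repressor CtBP, differed by 0.20 (SE 0.079, raw p = 0.0138) on its retained probe, and by 0.21 on both others, of which 1 was called.

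ZNF385A, a factor of adipocyte differentiation, differed by 0.031 between diets, ZNF281 by -0.052 and ZNF692, a regulator of gluconeogenic genes, by 0.097. The second probes of ZNF385A and ZNF692 had the other sign, at -0.049 and -0.040. ZNF236, a glucose-regulated gene, differed by 0.10 and ZNF202, a repressor of lipid metabolism genes, by -0.084. None of these 5 genes was called, and ZNF281 and ZNF202 turned positive, at 0.089 and 0.057, with the spike-in centre. The largest difference without a call was 0.32 for ZNF385D (SE 0.16, BH-adjusted p = 0.124), with SDs of 0.49 and 0.62 among HF and LF pigs. The second probe of ZNF385D gave -0.047 (SE 0.047), also without a call. A further 10 genes had a raw p under 0.01 and missed the fold limit, 6 of them above 0.

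Several genes could be checked on more than 1 probe. Of the 36 ZNF genes with 2 or more passing probes, 26 had the same sign of the diet difference on all of them. The brightest retained probes were those of ZNF605 (mean signal 6.78), ZNF706 (5.60) and ZNF414 (4.81). The second probe of ZNF605 had a mean of -1.16 and that of ZNF414 a mean of 1.63, so that probes named for the same gene differed widely in signal. ZNF605 differed between diets by 0.13 on the bright probe and 0.053 on the other, and ZNF414 by -0.085 and 0.0020, without a call. The dimmest were ZNF135, ZNF408 and ZNF366, with means of -3.15, -3.13 and -3.11 and no call.

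The diet differences were similar in the lines, which consist of separate pigs. The sign was the same in low RFI and high RFI pigs for 108 of 136 ZNF genes (79.4%) and for 79.0% of the other named genes. Across the 136 genes, which are not independent replicates, the correlation of the diet differences in both lines was r = 0.76, against 0.74 for the other genes. All 20 called genes had the same sign in both lines, as their selection on the pooled difference favours. With the 24 pigs of a line alone, 10 ZNF genes (7.35%) were called in the low RFI line and 9 (6.62%) in the high RFI line, against 13.3% and 13.5% of the other named genes. The largest rise, that of ZNF436, was 0.45 in the low RFI line and 0.31 in the high RFI line.

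**Figure D5:**
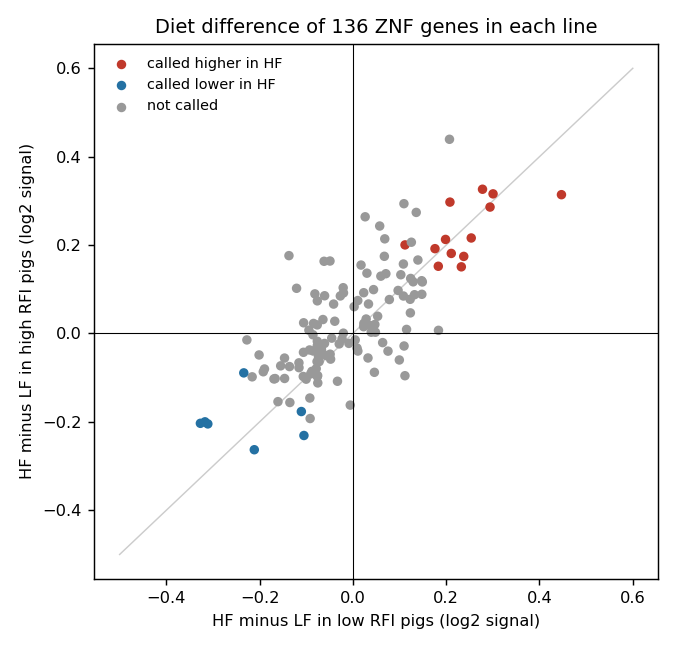
HF minus LF difference (log2 signal) of the 136 ZNF genes in low RFI pigs (x axis) and high RFI pigs (y axis), with called genes in red (higher) and blue (lower) and a grey line of equality. The points lie along the diagonal (r = 0.76 across genes), and all 20 called genes lie in the lower left or upper right quadrant.

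No diet by line interaction was called for the 136 ZNF genes by limma or by the two-way ANOVA, nor for any of the 43355 tested probes (0.0%). No ZNF gene had a raw p under 0.01 for the interaction, compared with 0.307% of all tested probes, and 1 had a raw p under 0.05. This was ZNF827, whose diet difference was -0.14 in the low RFI line and 0.18 in the high RFI line (interaction -0.31, SE 0.14, raw p = 0.0262). The next were ZNF256, with an interaction of -0.21 (raw p = 0.0579), and ZNF839, with -0.21 (raw p = 0.059).

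Selection for RFI left smaller differences than diet. No ZNF gene was called between lines by limma or by the two-way ANOVA, whereas 3.36% of all tested probes and 3.09% of the other named genes were called. In limma, 6 ZNF genes had a raw p under 0.01, as did 5.74% of all tested probes, and 12 had one under 0.05, and the smallest BH-adjusted p was 0.0835. The median low minus high RFI difference was 0.0086 for the ZNF genes and 0.0016 for the others, and the median absolute difference was 0.044 and 0.047. With the other genes weighted to the brightness classes of the ZNF genes, 3.0% were called. The weighted mean of their class medians of the absolute difference was 0.049.

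ZNF81 was nearest to a call. It ranged from -2.80 to -2.28 in low RFI pigs (median -2.53) and from -2.77 to -1.85 in high RFI pigs (median -2.41), with 20 of 24 low RFI pigs below the high RFI mean. The difference was -0.17 (SE 0.053, limma BH-adjusted p = 0.0835), and it was called with slide or replicate number as a block, without the interaction term, with array weights and on the probes the authors kept. ZNF148, a GC-box binding factor, was between 0.74 and 2.24 in low RFI pigs (median 1.86) and between 0.59 and 2.04 in high RFI pigs (median 1.55). Its signals left a gap among HF pigs. Low RFI pigs fed HF were at 0.74 to 0.89 or 1.58 to 2.15, and high RFI pigs at 0.59 to 0.80 or 1.39 to 1.70. Low RFI pigs fed LF were at 1.40 to 2.24, without such a gap. The line difference of ZNF148 was 0.36 (SE 0.13, limma BH-adjusted p = 0.134), and it was called with slide (BH-adjusted p = 0.0292), scan day or replicate number as a block. The dim second probe of ZNF148 gave 0.091. ZNF662 and ZNF259 differed by -0.15 and 0.14 between lines and were each called under array weights, ZNF662 also with the replicate block.

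The variation of ZNF genes among pigs was examined after removal of the 4 group means. Over the 9180 pairs of ZNF genes, the median correlation across the 48 pigs was 0.037, and 1.44% of pairs exceeded 0.5. Pairs of other named genes in the same range of brightness had a median of 0.025, with 2.28% above 0.5. The median was 0.18 between the genes called higher, 0.15 between those called lower and -0.035 between a gene of each direction. These values share the arrays and their centring, and are given as a description.

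The closest pair was ZNF322A and ZNF322B, with r = 0.93 across the 48 pigs. These are near-identical paralogs, so their signals may be shared, although the longest run of bases common to both probes was 6. They differed between diets by -0.096 and -0.10, without reaching the fold limit. The next pairs were ZNF205 with ZNF768 (r = 0.79) and ZNF282 with ZNF511 (r = 0.77).

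In the reference gene order, 31 of the 136 ZNF genes had another zinc finger gene as a direct neighbour, 76 had none and 29 could not be placed. The genes with such a neighbour had 4 calls higher and 1 lower, those without 5 and 5, and the unplaced genes 4 and 1. The shares called were 16.1%, 13.2% and 17.2%, against 24.4% of the other named genes. Of 4 pairs of adjacent ZNF genes, 2 had the same sign of the diet difference.

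Genes that work with ZNF proteins were examined as a list of co-repressors, 19 of 22 of which were measured. None was called higher with the HF diet and 2 were called lower, namely CHD3, a remodeller of the NuRD complex, by -0.20 (limma BH-adjusted p = 0.00606), and the histone deacetylase HDAC2, by -0.19 (BH-adjusted p = 0.0276). The share called was 10.5%, against 24.4% of the named genes other than ZNF. TRIM28, the main KRAB co-repressor, was between 4.93 and 5.53 with the HF diet (median 5.27) and between 5.02 and 5.62 with the LF diet (median 5.31), a difference of -0.042 (SE 0.043, BH-adjusted p = 0.492). SETDB1, the histone methyltransferase recruited by TRIM28, differed by 0.050 without a call. The median of the list was -0.017.

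In 92 genes with names of other zinc finger families, 7 were called higher (7.61%) and 13 lower (14.1%) with the HF diet, with a median of -0.014. Those called higher included KLF10, an early response factor, by 0.58 (limma BH-adjusted p = 0.0019), KLF3 by 0.33 and KLF6 by 0.20. Those called lower included KLF8 by -0.26 and KLF13 by -0.19 of the same family, ZC3H14 by -0.30 and ZBTB7A by -0.28. The families were unlike. Calls higher and lower were 3 and 2 of 16 KLF genes, 2 and 3 of 25 ZBTB genes and 1 and 1 of 8 ZFP genes. They were 0 and 2 of 12 ZC3H genes, 1 and 2 of 13 ZDHHC genes, 0 and 2 of 6 ZFAND genes and 0 and 1 of 1 ZHX gene. In 60 genes of the basal transcription machinery and Mediator, 1 was called higher (1.67%) and 15 lower (25.0%), with a median of -0.076. Both lists and the ZNF genes are set against the same 5.94% higher and 18.5% lower among named genes other than ZNF.

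Markers of other cell types moved with diet as well. All 6 macrophage markers had positive HF minus LF differences and 3 were called, CD163 by 0.70, CSF1R by 0.48 and AIF1 by 0.36. The mean over the macrophage list ranged from -0.71 to 0.93 in HF pigs and from -0.80 to 0.65 in LF pigs. Of the 6 adipocyte markers, 2 were called lower, LEP by -0.94 and CIDEC by -0.24, and the list mean ranged from 6.55 to 7.20 in HF pigs and from 6.88 to 7.44 in LF pigs. The 4 measured T and NK cell markers and the 5 fibroblast markers also had positive differences, with a median of 0.20 in each list. No marker of endothelium (5 of 5 measured), fibroblasts (5 of 5), T and NK cells (4 of 6), B cells (3 of 5), erythrocytes (2 of 3) or muscle (2 of 3) was called. The kidney marker AQP2, the only one of 3 measured, was lower with the HF diet by -0.63, and the adrenal marker STAR, also 1 of 3, differed by 0.17 without a call. The part of these cell types in the ZNF differences was not tested.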

How the data were processed

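Total RNA was Cy3-labelled and run on one-colour Agilent porcine arrays, 1 pig per array. Deposited scanner files hold spot intensity values and flags, made by the authors with Agilent Feature Extraction 10.7.3.1 per the file headers. The authors' deposited table of log2 values, for 38142 entries, holds filtered log2 intensity centred on each array's median. Of these, 38141 equalled log2 of the median signal of 1 spot minus an array constant (signal 382 to 638), within 1e-06, and 2 carried that spot's name, so names were taken from scanner files. Background was not subtracted.

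The same constants were applied to all probes. The 43355 biological probes well above background on at least 24 arrays were fitted with limma 3.58.1 in R 4.3.3, with diet, line and interaction. On simulated data, the diet test called 62 of 100 probes changed by 0.3, 93 of 100 changed by 0.5 and 18 unchanged ones. The simulation changed 200 of 43355 probes, with independent normal noise, whereas 23.0% of probes were called in the data. These rates therefore need not hold for the data. Precision is limited by the number of arrays (48, on 6 slides and 2 scan days, each slide with 2 arrays per group).

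ZNF genes, gene lists and markers were chosen with earlier results of these data known. Genes named were the 8 largest rises and falls called for diet, the 3 smallest interaction p-values, the 3 brightest and 3 dimmest, genes with a role in fat or named by the study, and co-repressors called; ZNF532, ZNF791, ZNF45, ZNF389, ZNF385D and those named for line were chosen after their values were seen. Alternatives were other scalings (array median or 75th percentile, processed signal, normexp with offset 50, quantile, spike-in), filters, thresholds, models (two-way ANOVA, blocks, array weights), subsets of pigs and the mean of a gene's probes. Python 3.11.15, pandas 2.3.3 and matplotlib 3.10.9 were used. Finger number and KRAB domains were not analysed here.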

Additional observations from a re-analysis of the deposited data

How the results depend on the processing

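Of 630 recomputed diet differences of the 32 named genes, 53 lost and 37 gained a call. A further 15, of 9 genes without a call, changed sign, 5 of them with the spike-in centre, and no called difference did. The 20 diet calls (13 higher, 7 lower) became 32 (28 and 4) with the 75th percentile as centre, 34 (30 and 4) with the processed signal and 50 (50 and 0) with the spike-in centre, where the median difference was 0.049, 0.081 and 0.15. The shares called were then 23.5%, 25.0% and 36.8%, against 22.1%, 23.4% and 26.5% of the other named genes. The 20 calls became 21 higher and 4 lower with normexp and quantile normalization, and 22 higher with quantiles of the log2 median signal. Here the shares called were 18.4% and 19.9%, against 20.9% and 21.8% of the other named genes. Fewer pigs gave fewer calls, with 10 (6 and 4) in the low RFI line and 9 (6 and 3) in the high RFI line. Scan day 1 gave 12 (10 higher, 2 lower) and scan day 2 gave 13 (6 higher, 7 lower). The scan day calls were 8.82% and 9.56% of the ZNF genes, against 12.4% and 13.7% of the other named genes. All 20 genes kept their sign on each scan day, as their selection on the pooled difference favours. Of the 13, 8 and 5 were called on the scan days, and of the 7, 2 and 3. A fold over 1.5 left 0 calls (0 higher, 0 lower), and no fold limit gave 11 lower. For line, where 0 genes were called, 1 was called on the probes the authors kept, 2 with slide as a block, 1 with scan day as a block, 3 with the replicate block, 1 without interaction, 3 with array weights and 1 (ZNF410) with names in any case, the last chosen after seeing the data. The cause of these changes was not tested, beyond the smaller number of pigs. With the replicate block, diet gave 23 calls (16.9%), against 26.4% of the other named genes. Pigs with the same number always shared a slide. Their deviations had a median correlation of 0.12 (-0.29 to 0.53), against -0.011 for unequal numbers and 0.062 for unequal numbers on the same slide. As 38 of 72 pairs, not all, exceeded 0.1, and 16 of 48 arrays correlated best with their own number, the number was not taken as a pairing.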

Other observations

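The array also holds 20 names with znf in lower or mixed case, 9 of which passed the filter and are not among the 136 genes. ZNF572 was higher with the HF diet by 0.14 (limma BH-adjusted p = 0.0266), with a median of -0.90 against -1.03 in LF pigs. ZNF410 was higher in low RFI pigs by 0.36 (limma BH-adjusted p = 0.0372) and did not pass the test for diet, at -0.12. The other 7 (ZNF33A, ZNF574, ZNF608, ZNF609, ZNF746, ZNF770 and ZNF830) were not called for diet or line. With names in any case, 145 genes gave 13 calls higher and 7 lower for diet and a median difference of -0.0012, against 0.0061 for the 136 genes. The brightest probe of either spelling then stood for a gene, so probes in lower case also replaced retained ones. ZNF142 was then represented by its probe at -0.074, without a call, and ZNF292 by its probe at 0.31, so the genes called higher were not the same.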
